A study of Mus musculus with 12 samples.

Results

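Astrocyte marker genes and the genes that mark reactive astrocytes, 37 in all, were followed in the brains of double-knockout (DKO) and control (Con) mice. They were chosen by name. Of them, 13 mark astrocytes in general, 9 are shared by reactive states (pan-reactive), 6 belong to the panel called A1-type and 9 to the panel called A2-type. All 37 were found among the 37306 gene names on the array, on 81 of its 56568 analysed probes. The brightest probe of a gene stands for it below unless another is named. Total RNA came from 6 mice aged 2 months and labelled male, 3 per genotype. Each mouse gave basal forebrain, where the cholinergic cell bodies lie, and cerebral cortex, so that there were 12 Agilent arrays of 1 colour. DKO mice carried Cre driven by Chat, a homozygous floxed allele and PS2-/-. Con mice carried the same homozygous floxed allele and PS2+/-, with no Cre. The floxed allele was thus shared by both genotypes and could be lost in DKO only in cells that express or have expressed Chat, whereas Psen2 was missing from every DKO cell and present in 1 copy in Con. Any difference between DKO and Con therefore joins Cre, the loss of the floxed allele in those cells and the loss of the remaining Psen2 copy.

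Astrocytes clear glutamate, buffer potassium and water, and couple to each other through gap junctions. After injury, infection or inflammation they enter reactive states, in which intermediate filaments, protease inhibitors and acute-phase genes are typically raised. The A1-type panel was defined in mouse after an inflammatory stimulus and the A2-type panel after ischaemia, and reactive astrocytes often carry genes of both. Cytokines of the interleukin-6 family, acting through Osmr and related receptors and the transcription factor Stat3, are known drivers of these states.

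Levels are given as log2 intensity relative to the 75th percentile of the same array, so a level of 0 is that percentile and a difference of 1 is 2-fold. They are comparable between arrays for a gene and were not compared between genes. Between 68.9% and 75% of probes were well above background on an array, and arrays of a group correlated at r = 0.985 to 0.995. Psen2, DKO minus Con, was -1.87 in basal forebrain (SE 0.16, limma adjusted p = 0.0334) and -2.12 in cortex (SE 0.09, limma adjusted p = 0.000327). Slide 1 carried the whole of the basal forebrain set plus cortex from DKO mice 1 and 2, and slide 2 carried cortex from DKO mouse 3 and from the 3 Con mice. Xist, transcribed from the inactive X chromosome of females, was well above background on both arrays of DKO mice 1 and 3, so that 2 DKO mice went against their label of male. Summed markers of cortical excitatory neurons were 7.27 to 13.5 in DKO, against 6.80 to 16.6 in Con basal forebrain, and 56.0 to 58.9 in DKO, against 52.3 to 55.6 in Con cortex, in multiples of the 75th percentile, so the regions stood apart on them. The scanner called 34 of the 37 genes well above background on all 12 arrays. Steap4 reached that on 2 arrays, Ptx3 on 1 and Tgm1 on 0, and these 3 entered no test. In bulk tissue fewer astrocytes and less RNA per astrocyte cannot be told apart.

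None of the 34 tested genes passed in the genotype comparison of either region or of their mean. A gene passed when its p from limma, adjusted by Benjamini-Hochberg over all genes of the comparison, was under 0.05. In basal forebrain 0 of 34 passed, against 8 of 26102 genes in all (0.0306%). In cortex 0 of 34 passed, against 3 of 25798 genes (0.0116%). For the mean of both regions per mouse 0 of 34 passed, against 40 of 24825 genes (0.161%). At an unadjusted p under 0.05, 7 genes were higher in DKO basal forebrain (2.63% of all genes) and 1 was lower (1.76%). In cortex 7 were higher (6.82%) and 3 were lower (12%), and in the mean 6 were higher (4.53%) and 1 was lower (6.59%). Without overlap between the genotypes, 7 of the 34 were higher in DKO basal forebrain (4.63%) and 2 were lower (5.32%), and 7 were higher in DKO cortex (8.86%) and 3 were lower (13.5%). The median difference over the 34 was 0.15 in basal forebrain, where that over all genes was 0.00, and 0.01 in cortex, where that over all genes was -0.05. Gjb6, Fgfr3 and Osmr were above every Con array of the same region on all 6 DKO arrays, as 1.12% of all genes were (279 of 24941). Aqp4 was below on all 6, as 1.34% of all genes were. The regions of a mouse are not independent, so these joint counts rest on 3 mice per genotype.

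**Figure D1:**
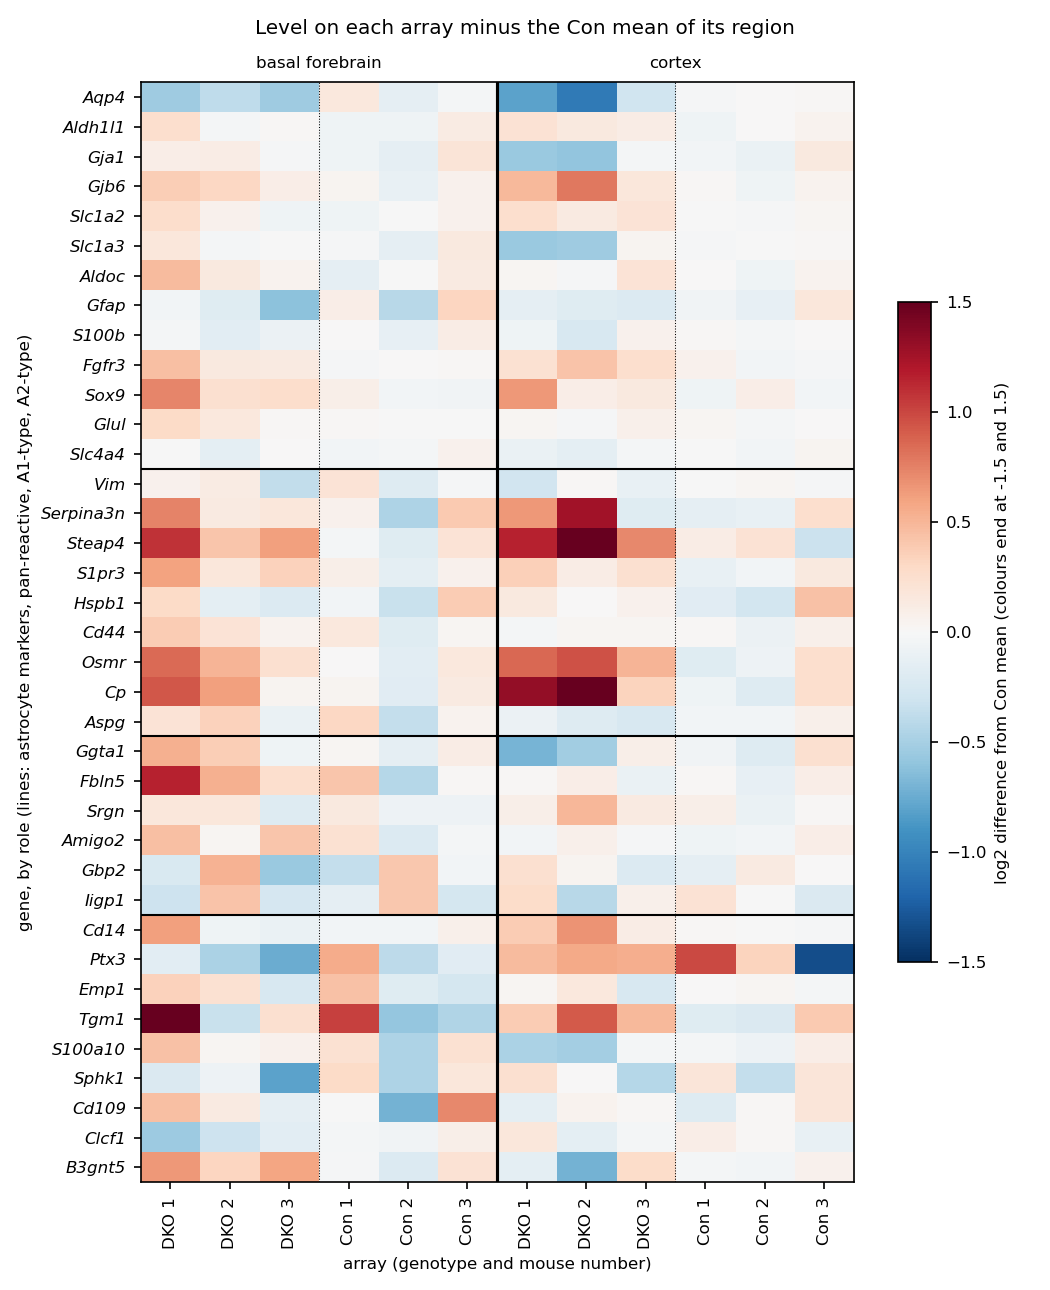
Level of each of the 37 genes (rows, by role) on each of the 12 arrays (columns), shown as the log2 difference from the mean of the 3 Con arrays of the same region. Red is higher and blue is lower than that mean. Aqp4 is blue in all 6 DKO columns, Osmr is red in all 6, and Cp and Serpina3n are redder in the cortex of DKO mice 1 and 2 than in that of DKO mouse 3. Steap4, Ptx3 and Tgm1 were mostly not above background, so their colours mark dim signal.

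Among the astrocyte markers, Aqp4, the water channel of astrocyte endfeet, had the largest deficit. In basal forebrain Aqp4 stood at 1.41, 1.56 and 1.40 in DKO (mice 1, 2 and 3) and at 2.10, 1.81 and 1.91 in Con. In cortex Aqp4 stood at 1.03, 0.76 and 1.52 in DKO, against 1.80, 1.83 and 1.84 in Con. The genotypes did not overlap in either region, and in cortex DKO mouse 3 lay nearest to Con. The difference for Aqp4, DKO minus Con, was -0.48 in basal forebrain (SE 0.09, 95% interval -0.71 to -0.26, limma adjusted p = 0.632) and -0.72 in cortex (SE 0.17, 95% interval -1.12 to -0.32, limma adjusted p = 0.261). For the mean of both regions the difference was -0.60 (SE 0.09, limma adjusted p = 0.0591), the smallest adjusted p of any of the 34 genes in a genotype comparison. That mean takes in cortex, where the arrays of DKO mice 1 and 2 lay on another slide than those of Con. In cortex Aqp4 differed from Con by -0.93 in DKO mice 1 and 2 and by -0.30 in DKO mouse 3, which shared the slide of Con.

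Gjb6 and Fgfr3 lay above Con on every DKO array, without passing the test in either region. Gjb6, a gap-junction protein of astrocytes, was at 4.07, 4.01 and 3.80 in DKO, against 3.74, 3.59 and 3.77 in Con basal forebrain, and at 3.89, 4.19 and 3.57 in DKO, against 3.42, 3.34 and 3.46 in Con cortex. Its lowest DKO array exceeded the highest Con array by little in basal forebrain. The differences for Gjb6 were 0.26 (SE 0.09, limma adjusted p = 0.973) and 0.48 (SE 0.14, limma adjusted p = 0.261). Fgfr3, a fibroblast growth factor receptor, was at 4.37, 4.06 and 4.05 in DKO, against 3.90, 3.92 and 3.94 in Con basal forebrain, and at 4.07, 4.27 and 4.09 in DKO, against 3.90, 3.79 and 3.82 in Con cortex. Every DKO array of Fgfr3 again lay above the Con arrays of its region, DKO mouse 3 included. The differences for Fgfr3 were 0.24 (SE 0.10, limma adjusted p = 0.973) and 0.31 (SE 0.07, limma adjusted p = 0.261), and for the mean of both regions 0.27 (SE 0.05, limma adjusted p = 0.201).

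At their brightest probes, Gja1, another gap-junction protein, and the glutamate transporter Slc1a3 showed a split among the DKO mice in cortex. Gja1 read 0.86 and 0.82 in the cortex of DKO mice 1 and 2 and 1.39 in that of DKO mouse 3, against 1.38, 1.31 and 1.56 in Con. Slc1a3 read 3.91, 3.93 and 4.51 in DKO cortex, against 4.45, 4.46 and 4.48 in Con. For both genes DKO mouse 3, whose cortex array shared slide 2 with the Con arrays, was at the Con level. Over all cortex arrays the differences were -0.40 for Gja1 (SE 0.16, limma adjusted p = 0.261) and -0.35 for Slc1a3 (SE 0.15, limma adjusted p = 0.265), and in basal forebrain they were 0.06 and 0.05. Other probes well above background on all 12 arrays gave smaller values in cortex, -0.06 and -0.01 for Gja1 and -0.10 for Slc1a3.

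Slc1a2, the other main astrocytic glutamate transporter, did not show that split. It read 3.65, 3.54 and 3.60 in DKO cortex, against 3.39, 3.38 and 3.43 in Con cortex, with no overlap, a difference of 0.20 (SE 0.06, limma adjusted p = 0.261). In basal forebrain its groups overlapped and the difference was 0.09 (SE 0.10). Sox9, a transcription factor of astrocyte identity, read -0.18, -0.68 and -0.65 in DKO, against -0.83, -0.95 and -0.97 in Con basal forebrain, and -0.07, -0.61 and -0.57 in DKO, against -0.78, -0.61 and -0.75 in Con cortex. DKO mouse 1 was the highest in both regions, and the groups overlapped in cortex. The differences for Sox9 were 0.41 (SE 0.15, limma adjusted p = 0.973) and 0.30 (SE 0.15, limma adjusted p = 0.304). A second Sox9 probe, well above background on all 12 arrays, gave 0.06 and -0.13, so the size and in cortex the sign depend on the probe.

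Gfap, the intermediate filament by which reactive astrocytes are most often recognised, was not raised in DKO on its brightest probe. It read 2.46, 2.33 and 1.90 in DKO, against 2.60, 2.09 and 2.83 in Con basal forebrain, and 1.71, 1.66 and 1.64 in DKO, against 1.79, 1.72 and 2.02 in Con cortex. The genotypes overlapped in basal forebrain and lay just apart in cortex, DKO below Con. The difference was -0.28 in basal forebrain (SE 0.22, 95% interval -0.79 to 0.24, limma adjusted p = 0.973) and -0.17 in cortex (SE 0.09, 95% interval -0.38 to 0.03, limma adjusted p = 0.302). A rise of more than 0.24 in basal forebrain or 0.03 in cortex lies outside these intervals. The remaining astrocyte markers, Aldh1l1 (folate metabolism), Aldoc (glycolysis), S100b (calcium binding), Glul (glutamine synthesis) and Slc4a4 (bicarbonate transport), had differences between -0.10 (S100b) and 0.22 (Aldoc) in basal forebrain and between -0.09 (Slc4a4) and 0.16 (Aldh1l1) in cortex. Of these, Glul in basal forebrain (0.15, SE 0.09) and Aldh1l1 in cortex (0.16, SE 0.06) had no overlap between the genotypes. A second Aldh1l1 probe, well above background on all 12 arrays, gave -0.03 in basal forebrain and -0.10 in cortex. Other such probes gave 0.04 and 0.02 for Glul in basal forebrain, and 0.32 and 0.29 for Aldoc and 0.24 for Slc4a4 in cortex. In all, 4 of 13 astrocyte markers lay above Con without overlap (4.63% of all genes) and 1 below (5.32%) in basal forebrain, and 4 above (8.86%) and 2 below (13.5%) in cortex. The count below Con in cortex is near the share of all genes.

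**Figure D2:**
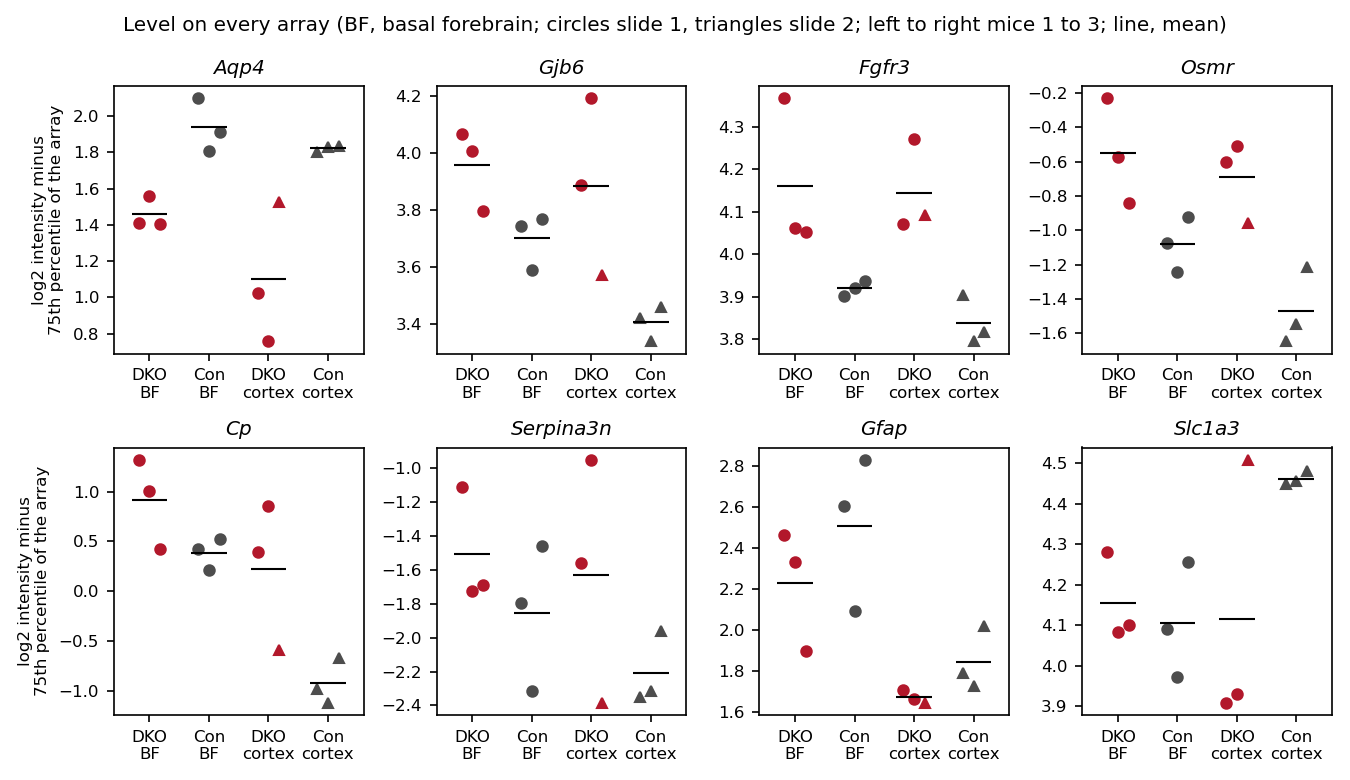
Level of 8 genes on every array, as log2 intensity relative to the 75th percentile of the array, for DKO and Con in basal forebrain and in cortex. Points run from mouse 1 to mouse 3 in each group, circles are slide 1, triangles are slide 2 and lines are group means. In cortex DKO mouse 3 lies with the Con arrays for Slc1a3 and Serpina3n, and closer to them than DKO mice 1 and 2 for Aqp4 and Cp.

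Of the pan-reactive genes, the receptor Osmr and the iron oxidase Cp stood highest above Con. On the same arrays the summed neutrophil, erythroid, B-cell and endothelial markers, given further on, were above Con in every DKO sample. Osmr, the oncostatin M receptor subunit, read -0.23, -0.57 and -0.84 in DKO, against -1.07, -1.24 and -0.92 in Con basal forebrain, and -0.60, -0.51 and -0.96 in DKO, against -1.65, -1.54 and -1.21 in Con cortex. Neither region had overlap, and DKO mouse 3 was the lowest DKO mouse in both. The differences for Osmr were 0.53 (SE 0.17, 95% interval 0.12 to 0.94, limma adjusted p = 0.973) and 0.78 (SE 0.16, 95% interval 0.40 to 1.15, limma adjusted p = 0.261). Cp, ceruloplasmin, read 1.32, 1.00 and 0.42 in DKO, against 0.42, 0.21 and 0.52 in Con basal forebrain, and 0.40, 0.85 and -0.59 in DKO, against -0.98, -1.12 and -0.67 in Con cortex. In basal forebrain DKO mouse 3 lay inside the Con range, and in cortex it lay just above it. The differences for Cp were 0.53 (SE 0.22, limma adjusted p = 0.973) and 1.14 (SE 0.33, limma adjusted p = 0.261).

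Serpina3n, a secreted protease inhibitor and a common marker of reactive astrocytes, read -1.11, -1.72 and -1.69 in DKO, against -1.79, -2.32 and -1.46 in Con basal forebrain, and -1.56, -0.95 and -2.38 in DKO, against -2.35, -2.32 and -1.96 in Con cortex. The groups overlapped in both regions, and DKO mouse 3 was the lowest of all 6 cortex arrays. The differences for Serpina3n were 0.35 (SE 0.26, 95% interval -0.27 to 0.97) and 0.58 (SE 0.33, 95% interval -0.19 to 1.34), with limma adjusted p = 0.973 and 0.334. S1pr3, a receptor for a sphingosine lipid, read -0.52, -0.95 and -0.77 in DKO, against -1.04, -1.27 and -1.05 in Con basal forebrain, and -0.54, -0.78 and -0.66 in DKO, against -1.01, -0.93 and -0.74 in Con cortex. It separated the genotypes in basal forebrain (0.37, SE 0.14, limma adjusted p = 0.973) and not in cortex (0.24, SE 0.11, limma adjusted p = 0.280).

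Vim, the intermediate filament that accompanies Gfap in reactive astrocytes, read 2.39, 2.45 and 1.97 in DKO, against 2.54, 2.14 and 2.32 in Con basal forebrain, and 1.92, 2.22 and 2.10 in DKO, against 2.20, 2.23 and 2.18 in Con cortex. The groups overlapped in both regions, with differences of -0.06 (SE 0.16, limma adjusted p = 0.985) and -0.12 (SE 0.08, limma adjusted p = 0.399). The small heat-shock protein Hspb1, the hyaluronan receptor Cd44 and the asparaginase Aspg had differences of -0.02, 0.21 and 0.15 in basal forebrain and 0.07, 0.01 and -0.18 in cortex. Of these only Aspg in cortex had no overlap, with DKO at -0.70, -0.80 and -0.85 and Con at -0.65, -0.65 and -0.53. Steap4, a metalloreductase, read -6.32, -5.97 and -6.75 in DKO cortex, against -7.36, -7.25 and -7.80 in Con cortex. Only 2 of these arrays were well above background, so no fold change is given.

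Of the 6 A1-type genes 0 lay without overlap in either region, a count too small to set apart from the shares of all genes (4.63% higher and 5.32% lower in basal forebrain, 8.86% higher and 13.5% lower in cortex). In basal forebrain the one with the largest difference was Fbln5, an elastic-fibre protein, at 1.67, 1.05 and 0.77 in DKO, against 0.94, 0.09 and 0.54 in Con (0.64, SE 0.28, limma adjusted p = 0.973). In cortex Fbln5 differed by 0.01 (SE 0.10, 95% interval -0.22 to 0.24). Amigo2, an adhesion protein, read -1.24, -1.66 and -1.27 in DKO, against -1.46, -1.89 and -1.72 in Con basal forebrain (0.30, SE 0.17, limma adjusted p = 0.973), and differed by 0.01 in cortex.

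Srgn, a granule proteoglycan, read 0.56, 0.97 and 0.61 in DKO cortex, against 0.56, 0.37 and 0.48 in Con cortex (0.24, SE 0.12, limma adjusted p = 0.297). Ggta1, which adds terminal galactose to glycans, read -4.31, -4.14 and -3.53 in DKO cortex, against -3.67, -3.81 and -3.37 in Con cortex (-0.38, SE 0.24, limma adjusted p = 0.377). In basal forebrain Ggta1 read -3.69, -3.85 and -4.29 in DKO, against -4.20, -4.36 and -4.11 in Con (0.28, SE 0.20, limma adjusted p = 0.973). The interferon-induced GTPases varied more among mice than between genotypes. Gbp2 read -0.58, 0.18 and -0.91 in DKO, against -0.71, 0.06 and -0.39 in Con basal forebrain, and -1.10, -1.30 and -1.55 in DKO, against -1.49, -1.21 and -1.34 in Con cortex. Mouse 2 of each genotype was the highest in basal forebrain. Iigp1 had differences of -0.05 (SE 0.25) and -0.02 (SE 0.20).

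Among the A2-type genes, Cd14, the co-receptor for bacterial lipopolysaccharide, read -0.82, -0.53 and -1.08 in DKO cortex, against -1.18, -1.20 and -1.22 in Con cortex, without overlap (0.39, SE 0.14, limma adjusted p = 0.261). In basal forebrain DKO mouse 1 alone stood out, with Cd14 at -0.53, -1.20 and -1.23 in DKO, against -1.18, -1.18 and -1.05 in Con. S100a10, the annexin partner, read 2.40, 2.37 and 2.85 in DKO cortex, against 2.85, 2.80 and 2.98 in Con cortex (-0.34, SE 0.13, limma adjusted p = 0.261). DKO mouse 3 was again inside the Con range.

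B3gnt5, which starts a class of glycolipid chains, had differences of opposite sign in the regions. It read -4.41, -4.73 and -4.47 in DKO, against -5.08, -5.26 and -4.84 in Con basal forebrain, without overlap (0.52, SE 0.20, limma adjusted p = 0.973). In cortex it read -4.10, -4.67 and -3.67 in DKO, against -3.98, -3.99 and -3.89 in Con, with overlap (-0.19, SE 0.26, limma adjusted p = 0.666). Clcf1, a cytokine of the interleukin-6 family, read -5.76, -5.54 and -5.38 in DKO, against -5.25, -5.28 and -5.13 in Con basal forebrain, DKO below Con without overlap (-0.34, SE 0.19, limma adjusted p = 0.973). In cortex its groups overlapped (SE of the difference 0.23). Sphk1, the kinase that makes sphingosine phosphate, read 1.07, 1.20 and 0.48 in DKO, against 1.57, 0.82 and 1.46 in Con basal forebrain (-0.37, SE 0.25, limma adjusted p = 0.973). The membrane proteins Emp1 and Cd109 had differences of 0.11 (SE 0.23) and 0.15 (SE 0.37) in basal forebrain and -0.02 (SE 0.13) and -0.03 (SE 0.20) in cortex.

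**Figure D3:**
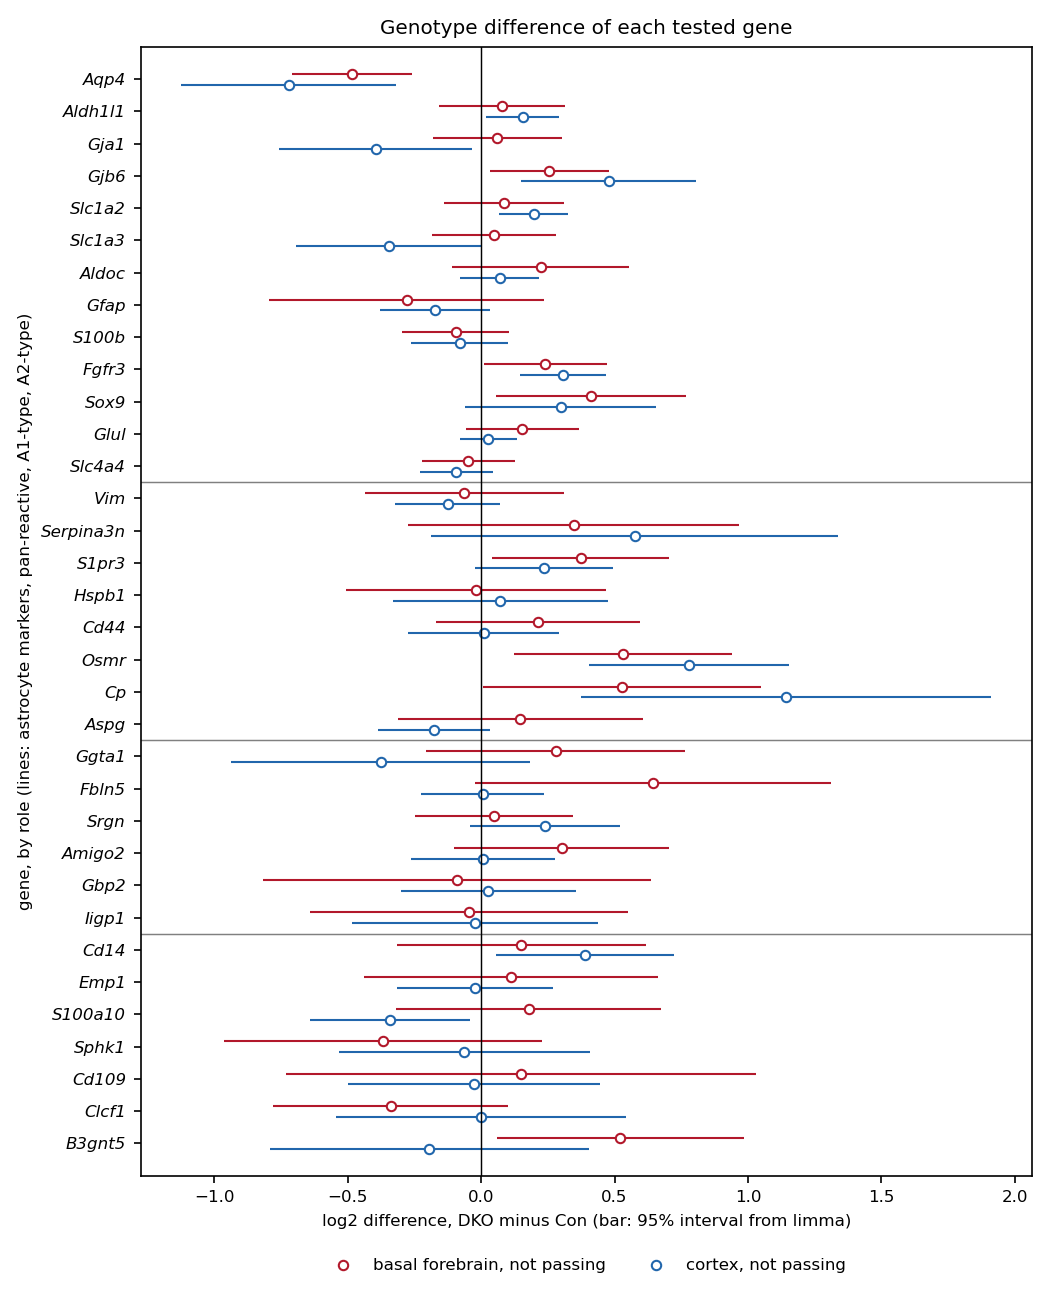
Log2 difference, DKO minus Con, of the 34 tested genes (rows, by role) in basal forebrain (red) and cortex (blue), with 95% intervals from limma. All points are open because no gene passed at an adjusted p under 0.05. Aqp4 lies lowest in both regions, and Cp and Osmr lie highest in cortex.

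Averaged over the regions of each mouse, Osmr was at -0.42, -0.54 and -0.90 in DKO, against -1.36, -1.39 and -1.07 in Con, a difference of 0.65 (SE 0.15, limma adjusted p = 0.282). Gjb6 differed by 0.37 (SE 0.10, limma adjusted p = 0.384) and Cp by 0.84 (SE 0.25, limma adjusted p = 0.401). Cp in DKO mouse 3 averaged -0.08, within the Con range of -0.45 to -0.07, while DKO mice 1 and 2 averaged 0.86 and 0.93. By role, 3 of 8 tested pan-reactive genes (Osmr, Cp and S1pr3) had an unadjusted p under 0.05 and were higher in DKO. So were 3 of 13 astrocyte markers (Fgfr3, Gjb6 and Sox9), against 4.53% of all genes. Aqp4 was lower, against 6.59% of all genes. None of the 6 A1-type or 7 tested A2-type genes reached that, numbers too small to set apart from these shares. The smallest limma adjusted p was 0.474 among the A1-type genes (Fbln5) and 0.464 among the A2-type genes (Cd14). Without DKO mouse 3, 3 of the 34 passed in the mean, Aqp4 (-0.69), Gjb6 (0.49) and Cp (1.16), among 208 of all genes in place of 40. In that setting the DKO cortex arrays are all on slide 1 and the Con cortex arrays all on slide 2. With DKO mouse 3 kept, slide and genotype are still partly joined in the mean, through the cortex arrays of DKO mice 1 and 2.

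Leaving out DKO mouse 3 altered the cortex result. Without it 13 of the 34 genes passed in cortex, 8 higher and 5 lower in DKO, but 9752 of all genes passed as well. That comparison sets DKO arrays on slide 1 against Con arrays on slide 2, so slide and genotype cannot be told apart in it. On slide 2 alone, where DKO mouse 3 meets the Con mice, 0 of 34 passed, and 25 of all genes did. The DKO side there is 1 array, assumed to vary like Con. There the differences were -0.30 for Aqp4, 0.51 for Osmr, 0.34 for Cp, 0.26 for Fgfr3, 0.17 for Gjb6 and 0.20 for Slc1a2. Those of DKO mice 1 and 2 from Con were -0.93, 0.91, 1.55, 0.33, 0.63 and 0.20 for the same genes. Serpina3n was -0.18 on slide 2 and 0.95 for DKO mice 1 and 2. In basal forebrain, where all arrays shared a slide, DKO mouse 3 differed from Con by -0.54 for Aqp4, 0.24 for Osmr, 0.04 for Cp and 0.17 for Serpina3n, and DKO mice 1 and 2 by -0.45, 0.68, 0.77 and 0.44. Without the DKO mice that have Xist signal, which leaves DKO mouse 2 alone, assumed to vary like Con, 13 genes passed in cortex (7 higher and 6 lower, 7849 of all genes), 0 in basal forebrain and 0 in the mean. The part of slide, mouse and sex in these values was not tested further.

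More of the 34 genes passed between regions than between genotypes. In DKO, 11 of 34 genes passed between basal forebrain and cortex, 9 higher and 2 lower in basal forebrain, where 39.9% of all genes passed (19.3% higher and 20.6% lower). In Con, 15 of 34 passed, 10 higher and 5 lower, where 49% of all genes passed (18.5% higher and 30.5% lower). The share of genes higher in basal forebrain was thus above, and the share lower was below, that of all genes in both genotypes. The median difference, basal forebrain minus cortex, was 0.14 over the 34 genes and -0.04 over all genes in DKO, and 0.25 and -0.09 in Con. In Con every basal forebrain array was on slide 1 and every cortex array on slide 2, so region and slide cannot be told apart there. In DKO mice 1 and 2 both regions were on slide 1. Markers of other cells also differed between the regions. Of 7 meningeal fibroblast genes 5 passed as higher in basal forebrain in DKO (19.3% of all genes) and 6 in Con (18.5%), and 0 as lower. Their median differences were 0.87 and 0.80. Choroid plexus sums, given further on, were higher in cortex in both genotypes. The part of such cells in the region differences of the 34 genes was not tested.

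Slc4a4, a sodium bicarbonate cotransporter, had the smallest p of the 34 genes in both genotypes. It read 4.24, 4.10 and 4.25 in DKO basal forebrain and 3.21, 3.16 and 3.28 in DKO cortex, and 4.21, 4.21 and 4.31 in Con basal forebrain and 3.30, 3.27 and 3.35 in Con cortex. Within mice the excess in basal forebrain was 1.03, 0.94 and 0.97 in DKO, against 0.91, 0.94 and 0.96 in Con. The fitted differences were 0.98 in DKO (SE 0.06, limma adjusted p = 5.34e-07) and 0.94 in Con (SE 0.06, limma adjusted p = 8.87e-07). Gfap rose in basal forebrain against cortex in all 6 mice, by 0.75, 0.67 and 0.25 in DKO and by 0.82, 0.37 and 0.81 in Con. Its fitted differences were 0.56 in DKO (SE 0.18, limma adjusted p = 0.0250) and 0.67 in Con (SE 0.18, limma adjusted p = 0.00909).

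Of the 6 A1-type genes 4 passed as higher in basal forebrain in each genotype (19.3% of all genes in DKO and 18.5% in Con), namely Fbln5, Amigo2, Gbp2 and Iigp1. Fbln5, given above for basal forebrain, read -0.22, -0.14 and -0.34 in DKO cortex and -0.21, -0.36 and -0.14 in Con cortex, in each mouse below its basal forebrain. It rose by 1.40 in DKO (SE 0.22, limma adjusted p = 0.000497) and 0.76 in Con (SE 0.22, limma adjusted p = 0.0155). Amigo2 read -2.46, -2.34 and -2.43 in DKO cortex and -2.49, -2.45 and -2.31 in Con cortex, again below basal forebrain in each mouse. It rose by 1.02 in DKO (SE 0.15, limma adjusted p = 0.000203) and 0.73 in Con (SE 0.15, limma adjusted p = 0.00191). Gbp2 rose by 0.88 in DKO (SE 0.25, limma adjusted p = 0.0163) and 1.00 in Con (SE 0.25, limma adjusted p = 0.00734). Within mice Gbp2 differed by 0.52, 1.48 and 0.64 in DKO and by 0.78, 1.26 and 0.95 in Con, all in the same direction. Iigp1 rose by 0.75 in DKO, against 0.77 in Con, with limma adjusted p = 0.0284 and 0.0207, and ranged within mice from 0.18 in DKO mouse 1 to 1.62 in DKO mouse 2. At the second Iigp1 probe, also well above background on all 12 arrays, the difference was 0.62 in DKO and 0.05 in Con, and neither passed.

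Of the pan-reactive genes, Hspb1 (0.66 in DKO, against 0.75 in Con) and Aspg (0.75 in DKO, against 0.43 in Con) rose in basal forebrain in both genotypes. Cp passed in Con (1.31, SE 0.31, limma adjusted p = 0.00502) and not in DKO (0.69, SE 0.31, limma adjusted p = 0.0952). Among the A2-type genes Emp1 read -0.54, -0.66 and -1.12 in DKO basal forebrain and -1.52, -1.39 and -1.79 in DKO cortex, without overlap. In Con it read -0.44, -1.06 and -1.15 in basal forebrain and -1.54, -1.51 and -1.58 in cortex. Emp1 rose in both genotypes, by 0.79 in DKO (SE 0.20, limma adjusted p = 0.00747) and 0.66 in Con (SE 0.20, limma adjusted p = 0.0161).

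Fewer genes were lower in basal forebrain. S100a10 read 2.15, 1.74 and 1.77 in DKO, against 1.94, 1.25 and 1.94 in Con basal forebrain, each below the cortex of the same mouse. It fell by 0.65 in DKO basal forebrain against DKO cortex (SE 0.19, limma adjusted p = 0.0164) and by 1.17 in Con basal forebrain against Con cortex (SE 0.19, limma adjusted p = 0.000456). B3gnt5 differed by -0.39 in DKO (SE 0.24, limma adjusted p = 0.213) and fell by 1.11 in Con (SE 0.24, limma adjusted p = 0.00308). Slc1a2 fell by 0.23 in DKO (SE 0.08, limma adjusted p = 0.0385) and differed by -0.12 in Con (limma adjusted p = 0.241). Ggta1, Slc1a3 and Glul passed in Con, with -0.61, -0.36 and -0.18 (limma adjusted p = 0.0478, 0.0490 and 0.0467). In DKO they differed by 0.05, 0.04 and -0.05. Each of these 3 lies close to the threshold.

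With the slide as a block, which takes the region contrast of Con through the DKO arrays, 9 of 34 genes passed in DKO (9796 of all genes) and 2 of 34 in Con (2884 of all genes). Gfap, Hspb1, Gbp2, S100a10 and Slc1a2 no longer passed in DKO under that block, and in Con neither did any of the 15 genes but Slc4a4. The genes whose regions could be compared on a single slide, in DKO mice 1 and 2, gave 1.89 and 1.19 for Fbln5, 1.22 and 0.68 for Amigo2, 0.98 and 0.73 for Emp1, 0.75 and 0.67 for Gfap, 0.90 and 0.60 for Hspb1, and 0.92 and 0.15 for Cp. Leaving out Con mouse 1 left 7 genes passing in Con (6837 of all genes in place of 13025). Without Con mouse 3 there were 9 (11046 of all genes). Leaving out DKO mouse 2 left 5 passing in DKO (6369 of all genes in place of 10337).

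**Figure D4:**
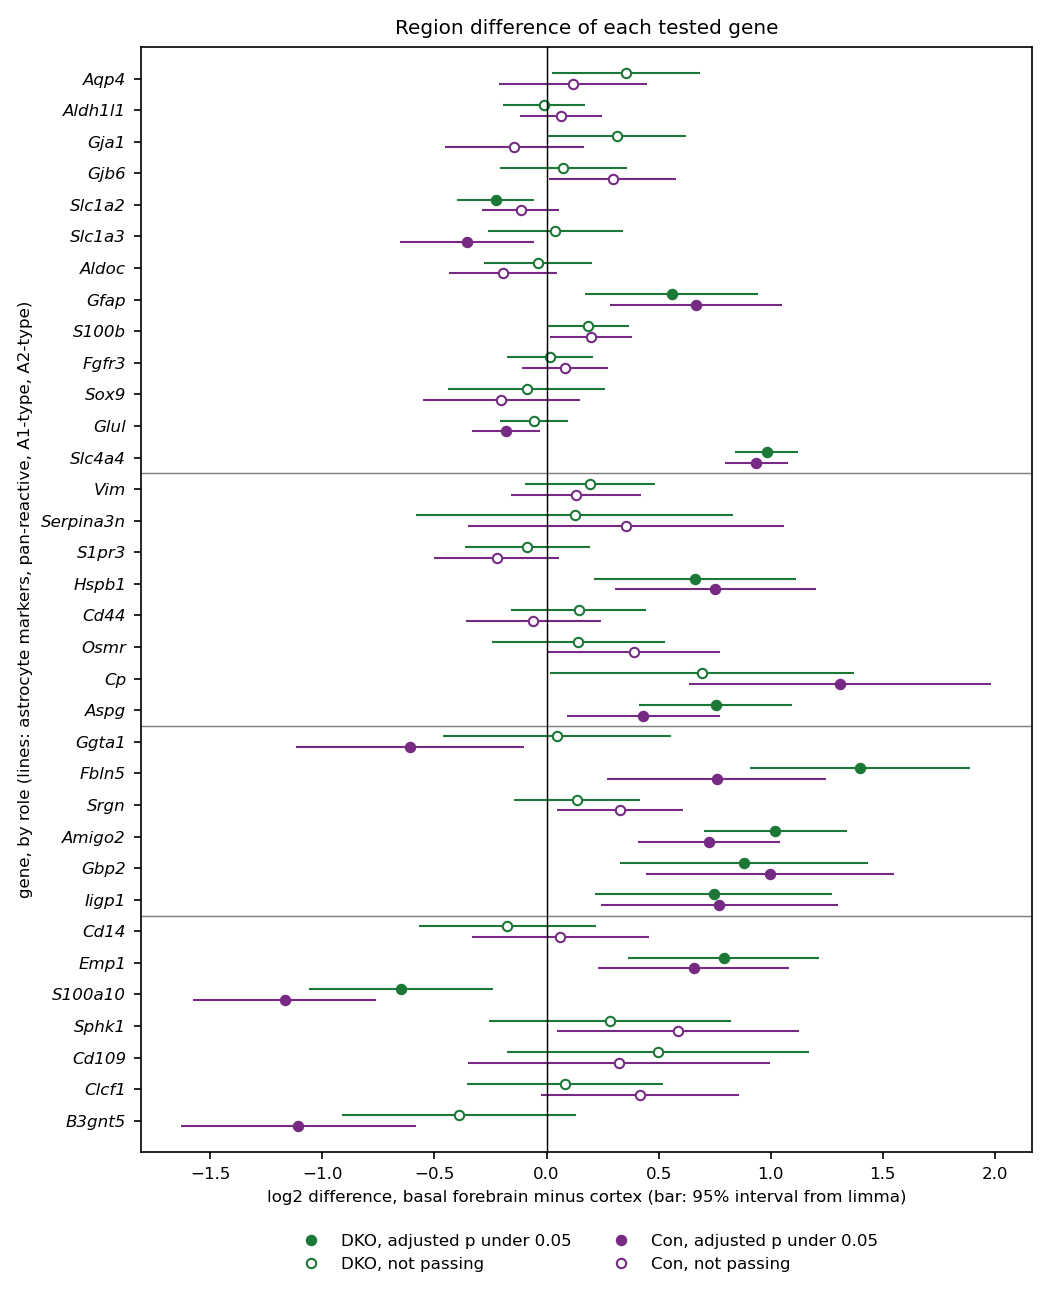
Log2 difference, basal forebrain minus cortex, of the 34 tested genes (rows, by role) in DKO (green) and Con (purple), with 95% intervals from limma. Filled points passed at an adjusted p under 0.05. The points of Slc4a4 and of the A1-type genes other than Ggta1 lie to the right of 0 in both genotypes, and those of S100a10 to the left.

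The genotype difference itself was then set between the regions, as that in basal forebrain minus that in cortex. None of the 34 genes passed (0 of all 26959 genes, 0%, and 8.36% of all genes at an unadjusted p under 0.05 against 1 of 34 here). That gene was Gja1 (0.46, SE 0.20, limma adjusted p = 0.562). Next came B3gnt5 (0.71, SE 0.34), Slc1a3 (0.39, SE 0.19), Fbln5 (0.64, SE 0.32) and Ggta1 (0.66, SE 0.33), all with limma adjusted p = 0.562. Without DKO mouse 3, 3 genes passed: Slc1a3 (0.62), Gja1 (0.68) and Ggta1 (1.06), among 1556 of all genes, and in that setting the cortex arrays of the genotypes again lie on different slides. The genotype differences of B3gnt5 and Fbln5 therefore were not shown to differ between the regions.

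Different probes of a gene did not always give the same answer. For 18 of the 37 genes at least 2 probes were well above background on all 12 arrays, and their genotype differences had the same sign at every probe for 15 of 18 in basal forebrain and 12 of 18 in cortex. Aqp4 had a second probe with -0.36 in basal forebrain and -0.67 in cortex and a further, dimmer one with 0.03 and -0.11. Gjb6 (0.25 and 0.38 at its second probe) and Fgfr3 (0.19 and 0.64) kept their direction. The second Gfap probe gave -0.24 and -0.40. Cp had 5 such probes, whose differences ranged from 0.09 to 0.53 in basal forebrain and from -0.02 to 1.14 in cortex. For the region contrast in Con the signs matched for 10 of 18, and Cp and Slc1a3 were among those that did not: their second probes gave -0.56 and 0.78, opposite to the brightest. The second Gfap probe gave only 0.31 in DKO, against 0.15 in Con. In the mm9 build of the files, the brightest probes lie at chr11:102751813-102751872 (Gfap), chr15:6763686-6763745 (Osmr), chr3:19889071-19889130 (Cp), chr14:57742226-57742285 (Gjb6), chr5:34079649-34079708 (Fgfr3) and chr15:8584747-8584806 (Slc1a3). The exon or UTR each probe hits was not looked up, since the annotation used here is of another build.

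**Figure D5:**
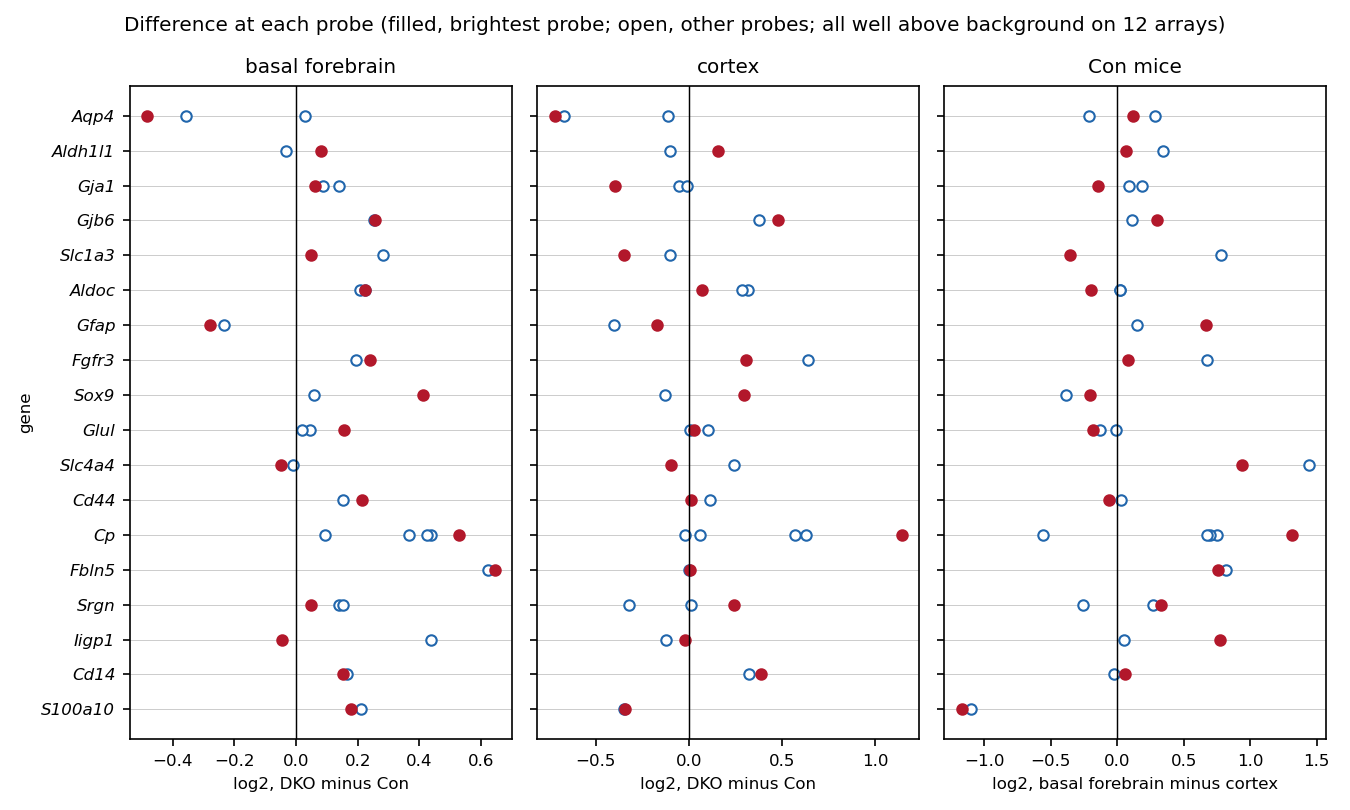
Log2 difference at each probe well above background on all 12 arrays, for the 18 genes with at least 2 such probes (rows). The left and middle panels show DKO minus Con in basal forebrain and in cortex, and the right panel shows basal forebrain minus cortex in Con. Filled points are the brightest probe used for all other values, and open points are the other probes. The points of Slc1a3 and Cp fall on both sides of 0 in the right panel.

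Other genes of the same cells gave a similar picture. Of 25 further astrocyte genes 0 passed between genotypes in either region, with medians of 0.04 in basal forebrain and -0.02 in cortex. The lowest was Dio2, a thyroid hormone deiodinase (-0.39 and -0.87), and the highest in cortex was Mertk, a phagocytic receptor (0.46). Kcnj10, the potassium channel of astrocytes, read 5.68, 5.62 and 5.79 in DKO, against 5.37, 5.30 and 5.41 in Con basal forebrain, and 5.19, 5.06 and 5.22 in DKO, against 4.80, 4.78 and 4.83 in Con cortex. It was above Con on every DKO array, with differences of 0.34 (SE 0.08, limma adjusted p = 0.815) and 0.35 (SE 0.06, limma adjusted p = 0.188). Between regions 13 of these 25 passed in DKO (12 higher and 1 lower in basal forebrain) (39.9% of all genes) and 11 in Con (8 higher and 3 lower, 49% of all genes), so that the count in Con is no more than the share of all genes. The highest was the GABA transporter Slc6a11 (1.55 in DKO, against 1.14 in Con).

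Of 12 further reactive-panel genes 10 were tested between genotypes and 0 passed. Lcn2, lipocalin 2, a secreted protein of reactive astrocytes and also of neutrophils, had by far the largest difference. It read 1.12, -0.35 and -1.07 in DKO, against -3.17, -3.26 and -2.95 in Con basal forebrain, and 0.69, 1.73 and -1.06 in DKO, against -2.95, -2.85 and -2.67 in Con cortex. All 6 DKO arrays lay above all Con arrays, with a wide spread among the DKO mice. The differences were 3.02 (SE 0.50, limma adjusted p = 0.453) and 3.28 (SE 0.60, limma adjusted p = 0.232), and 3.15 for the mean of both regions (SE 0.45, limma adjusted p = 0.0522). The chemokine Cxcl10 was at the low end, with -0.71 and -0.65. In cortex the class I histocompatibility genes H2-T23 and H2-D1 differed by 0.35 and 0.37.

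Among 20 genes for signals that drive astrocyte reactivity, 19 were tested in basal forebrain and 17 in cortex, and 0 passed between genotypes in each. Il6ra, a receptor chain for interleukin-6, read 0.99, 0.82 and 0.58 in DKO, against 0.49, 0.26 and 0.40 in Con basal forebrain (0.41, SE 0.12), and differed by 0.60 (SE 0.21) in cortex, with overlap. Il1r1, the interleukin-1 receptor, differed by 0.45 and 0.60. Socs3, a target of Stat3 that feeds back on it, differed by 0.48 in cortex (SE 0.13, limma adjusted p = 0.261) and by 0.01 in basal forebrain. Lif, a cytokine of the interleukin-6 family, was not above background in cortex. In basal forebrain it was well above background on 4 of 6 arrays, at -5.25, -5.69 and -6.20 in DKO, against -6.96, -6.73 and -8.77 in Con, and no difference is given. Tnf and Il1b lay at the low end, with Tnf at -0.64 in cortex and Il1b at -0.37 in basal forebrain, while Il1b was 0.32 in cortex.

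Markers of some other cell types differed between the genotypes on the same arrays. The summed level of 10 neutrophil genes was 4.58 to 9.53 in DKO, against 1.23 to 1.52 in Con basal forebrain, and 6.08 to 15.9 in DKO, against 1.22 to 2.00 in Con cortex, in multiples of the 75th percentile. That of 8 erythroid genes was 271 to 717 in DKO, against 130 to 148 in Con basal forebrain, and 276 to 491 in DKO, against 131 to 183 in Con cortex. That of 10 endothelial genes was 45.6 to 64.1 in DKO, against 40.0 to 43.6 in Con basal forebrain, and 42.9 to 58.7 in DKO, against 32.1 to 37.5 in Con cortex. That of 8 B-cell genes was 0.805 to 1.12 in DKO, against 0.150 to 0.179 in Con basal forebrain, with 3 of them (Ms4a1, Fcrla and Cxcr5) not above background on any Con array. In the mean of both regions 6 of 10 neutrophil, 6 of 6 erythroid and 5 of 7 B-cell genes that were tested passed, all higher in DKO. Of the 10 endothelial genes 0 passed in either region or in the mean (smallest limma adjusted p = 0.0890, in the mean). In cortex 7 of the endothelial genes were higher and 3 were lower in DKO. In cortex the 7 choroid plexus genes summed to 88.7 to 119 in DKO, against 53.9 to 103 in Con. In basal forebrain they summed to 9.0 to 10.5 in DKO, against 8.1 to 9.9 in Con, with Slc4a5 not above background on any array. Choroid plexus markers thus stood higher in cortex than in basal forebrain in both genotypes. The 8 microglial genes overlapped in basal forebrain (82.6 to 87.9 in DKO, against 78.5 to 89.3 in Con) and in cortex (68.6 to 96.6 in DKO, against 91.4 to 92.0 in Con). In cortex DKO mouse 2 had the highest neutrophil, erythroid and endothelial sums, and it was also the mouse with the highest Cp, Serpina3n, Osmr and Lcn2 there. DKO mouse 3 had the lowest of the 3 DKO sums for these lists in cortex and the lowest Cp, Serpina3n, Osmr and Lcn2 there. The order was not shared by every list or region. B-cell sums in cortex were highest in DKO mouse 3, at 0.516, 0.803 and 0.995 in DKO (mice 1, 2 and 3), against 0.170 to 0.196 in Con. In basal forebrain the erythroid sum was lowest in DKO mouse 2 (271), with DKO mouse 3 at 392. Osmr, Cp, Cd14, Serpina3n and Lcn2 are not made by astrocytes alone, and the part of these other cells in their values was not tested.

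The start regions of the genes were searched for the letters of the sites of Stat3 and of AP-1, both known to act in reactive astrocytes. RefSeq promoters in the GRCm38.p6 build, from 250 bases before to 50 after a gene's start, were found for 30 of the 37 genes (42 promoters), that is, for all but Aqp4, Sox9, Iigp1, Cd14, S100a10, Cd109 and Clcf1. The STAT letters TTCNNNGAA, on either strand, occurred in 8 of the 42 promoters, which belong to 7 genes (Aldoc, Emp1, Gfap, Slc1a3, Sphk1, Steap4 and Tgm1), and in 8.30% of all 32851 promoters. The AP-1 letters TGANTCA occurred in 7 of the 42, which belong to 6 genes (Cp, Emp1, Gbp2, Gja1, Osmr and Sphk1), and in 7.81% of all promoters. For each motif, 2 overlapping promoters of Sphk1 hold the same site, which is thus counted 2 times. Overlapping promoters were likewise not merged among all 32851. Both motifs read the same on either strand. A match is a string of letters and was not tested as a binding site. In 1 promoter, that of Emp1, matches of the 2 motifs overlapped. Stretches of 220 bases, from -200 to 19 around the start at position 0, are given for 4 of them, because Osmr and Cp stood highest above Con in DKO cortex and Gfap and Gbp2 were higher in basal forebrain. Matches are in capitals: Gfap on the minus strand at chr11:102897181-102897400 (STAT, -2 to 6), Osmr on the minus strand at chr15:6874294-6874513 (AP-1, 3 to 9), Cp on the plus strand at chr3:19956854-19957073 (AP-1, -177 to -171) and Gbp2 on the plus strand at chr3:142620463-142620682 (AP-1, -102 to -96).
Gfap: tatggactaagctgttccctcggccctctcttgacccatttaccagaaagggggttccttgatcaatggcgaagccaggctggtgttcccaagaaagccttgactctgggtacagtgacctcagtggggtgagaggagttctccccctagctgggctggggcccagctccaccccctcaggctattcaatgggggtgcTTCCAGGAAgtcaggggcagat
Osmr: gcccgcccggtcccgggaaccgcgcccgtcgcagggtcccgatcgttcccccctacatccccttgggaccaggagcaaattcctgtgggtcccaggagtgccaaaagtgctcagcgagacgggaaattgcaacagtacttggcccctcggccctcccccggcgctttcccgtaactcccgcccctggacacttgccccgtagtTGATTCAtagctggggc
Cp: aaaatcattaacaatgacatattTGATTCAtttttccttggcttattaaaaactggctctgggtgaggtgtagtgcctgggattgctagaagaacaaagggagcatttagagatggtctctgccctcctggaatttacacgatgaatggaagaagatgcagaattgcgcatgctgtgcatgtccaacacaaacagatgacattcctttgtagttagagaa
Gbp2: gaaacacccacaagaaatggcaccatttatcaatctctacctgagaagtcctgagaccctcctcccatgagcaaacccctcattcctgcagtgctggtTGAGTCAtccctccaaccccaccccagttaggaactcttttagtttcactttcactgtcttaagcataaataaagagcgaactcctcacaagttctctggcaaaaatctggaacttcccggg
The Gfap and Osmr matches sit at the start itself, while those of Cp and Gbp2 lie upstream. Genes with and without a match were found on both sides of the genotype comparison. Fgfr3 and Gjb6, above Con, and Aspg, below Con in cortex, had none. The STAT match of Gfap accompanied differences of -0.28 and -0.17 between genotypes, the AP-1 match of Osmr accompanied 0.53 and 0.78, and that of Cp 0.53 and 1.14, in basal forebrain and in cortex. A second Cp promoter had no match. The other genes with AP-1 letters differed, in the same order of regions, by 0.06 and -0.40 (Gja1), -0.37 and -0.06 (Sphk1), -0.09 and 0.03 (Gbp2) and 0.11 and -0.02 (Emp1).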

How the data were processed

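Per the file headers, scans were processed with Agilent Feature Extraction 10.7.1.1 (protocol GE1_107_Sep09), whose deposited processed intensity was used. The authors' log2 values in the deposited series table were an alternative, whose normalization no label or header states. Its 12 columns of flags were not read. Probes flagged at all their spots on some array (37 of 56605) were dropped. The log2 intensity was averaged over a probe's spots, and the array's 75th percentile subtracted. RefSeq gave gene names for 43193 probes, and 13375 carry the design's own name. A gene was tested when its brightest probe was well above background on all 3 arrays of a group. The number of arrays limits the precision.

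R 4.3.3 and limma 3.58.1 (lmFit, eBayes with trend=TRUE) were used, with Benjamini-Hochberg adjustment over all genes of a comparison. Each region was fitted on its 6 arrays, the mean of both regions on 6 mouse means, and region contrasts and the interaction on 12 arrays in 4 groups. Per the labels, each replicate is its own mouse, and the titles pair the 2 arrays of a mouse (correlation of deviations -0.0873 to 0.390). Replicate numbers across genotypes name different mice. The scripts were tested on simulated data. The 37 genes and all lists were chosen with earlier results of these data known. The naming rule took the 3 smallest p in each role, Gfap, Vim, Serpina3n and Aqp4, the 5 largest passing region differences each way, the 5 smallest interaction p and, of related lists, the smallest p and the extremes. Other genes with values were added after those were seen. Alternatives were normexp (offset 50), quantile normalization, the authors' values, other filters and probes, no trend, replicate and slide blocks, and leaving out mice. The second-brightest probe was chosen after seeing the data. Some items are not reported here.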

Additional observations from a re-analysis of the deposited data

How the results depend on the processing

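In basal forebrain 0 of the 34 genes passed under every alternative run. Leaving out mice in turn gave 0 to 13 in cortex (13 without DKO mouse 3), 0 to 3 in the mean of both regions (Gjb6, Aqp4 and Cp without DKO mouse 3), 7 to 19 for the region in Con, 5 to 11 for the region in DKO and 0 to 3 for the interaction. Without the DKO mice with Xist signal 13 passed in cortex. With the slide as a block 2 passed for the region in Con. With the replicate block (the mouse for the region contrasts) 0 passed in each genotype comparison and the interaction, 16 for the region in Con and 13 for the region in DKO. It changed no other count by over 1.5 times, except that over all genes 0 in place of 8 passed in basal forebrain. A slide block was not run in basal forebrain, where all arrays were on 1 slide, nor in the mean of both regions. The mean, which takes in cortex arrays of both slides, was thus not checked for slide.

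Counts over all genes also moved. In basal forebrain, against 8, they were 5 with normexp, 3 with no filter, 2 with probes above background on all arrays, 26 in the fit of 12 arrays, 0 without the mice with Xist signal and 0 to 28 without single mice. In cortex, against 3, they were 1 with no filter, 25 in the fit of 12 arrays, 0 with the mean of probes, 1 without trend, 25 on slide 2 alone, 7849 without the mice with Xist signal and 1 to 9752 without single mice. In the mean of both regions, against 40, they were 16 with no filter, 12 without trend, 10 without the mice with Xist signal and 18 to 208 without single mice. For the region in Con, against 13025, they were 2884 with the slide block and 6837 to 13905 without single mice, for the region in DKO, against 10337, 6369 to 10664, and for the interaction 0 to 1556.

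Of 1036 values of named genes under alternatives 940 kept their direction and side of the threshold, 51 lost the call, 24 gained one and 21 changed sign. Between regions, of 13 settings, Glul passed in 2, Slc1a3 in 3 and Ggta1 in 6 in Con, and Slc1a2 passed in 5 in DKO. Without the mice with Xist signal Vim became 0.1203 in basal forebrain, 0.0159 in cortex and 0.0681 in the mean. Without single mice the difference ranged from -0.16 to 0.0903 for Vim in basal forebrain (above 0 without DKO mouse 3 or Con mouse 1), from -0.0808 to 0.1425 for Gbp2 in cortex (below 0 without DKO mouse 1 or Con mouse 1) and from -0.4293 to 0.0668 for B3gnt5 in cortex (above 0 without DKO mouse 2). In cortex, with the slide as a block and on slide 2 alone, Ggta1 became 0.0896, Gbp2 -0.2027, B3gnt5 0.2787 and Serpina3n -0.1767, and with the mean of probes Srgn became -0.0235. For the region in Con, Ggta1 became 0.0907 and Slc1a3 0.2346 with the slide block, and Slc1a3 0.7829 and Cp -0.557 at the second probe. The cause was not tested. Signal over background limits Steap4, Ptx3 and Tgm1.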
